A study of Mus musculus with 6 samples.

Results

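The lipogenic enzymes and their transcription factors were followed in newborn mouse liver as a set of 10 genes, chosen by symbol from 19057 gene symbols on the array and read by 16 of its 45281 probes. They are 6 enzymes that turn acetate, citrate and malate into malonyl-CoA, NADPH and palmitate (Acss2, Acly, Acaca, Acacb, Fasn and Me1), 1 small protein tied to lipogenesis (Thrsp, or Spot 14), and 3 transcription factors (Srebf1, Mlxipl and Nr1h3). Liver RNA came from newborn mice on a mixed 129/ c57Bl/6 background, as 3 wild-type (WT) and 3 Igf2 knockout (KO) samples. It was hybridised to Illumina BeadChips, 1 sample an array. The labels do not give the allele, the sex, the litter or the hours since birth, nor whether an array holds 1 pup, and the spread behind every p-value is that of these 6 samples, which may be partly technical. Igf2 encodes insulin-like growth factor 2, a growth hormone of the fetus. Its probe had 53.6% of the WT signal in KO, and whether that probe lies in the removed stretch was not analysed here.

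In the liver, carbohydrate is turned into fatty acid through citrate, which ATP citrate lyase cleaves to acetyl-CoA in the cytosol. Acetyl-CoA carboxylase then makes malonyl-CoA, and fatty acid synthase builds palmitate from it at the cost of NADPH. Malonyl-CoA also inhibits the entry of fatty acids into mitochondria, so that synthesis and oxidation oppose each other. The genes are driven by SREBP-1c, the product of Srebf1, which responds to insulin, and by ChREBP, the product of Mlxipl, which responds to sugar phosphates. LXR alpha, the product of Nr1h3, is a sterol sensor that raises Srebf1. At birth the supply of maternal glucose ends and milk fat begins, and hepatic lipogenesis is known to be low in suckling rodents.

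Of the 10 genes, 8 had a probe above background and were tested, and in KO 2 of these rose and 2 fell. The enzyme genes Acacb and Acss2 rose, while the transcription factor genes Mlxipl and Srebf1 fell. Acly, Fasn, Me1 and Nr1h3 did not pass the test, and Acaca and Thrsp were not above background on any array. Above background means a detection p under 0.05, and a gene was called changed at a limma adjusted p under 0.05 over all 11346 genes tested. That rule called 16.7% of all genes, 8.23% higher and 8.49% lower in KO. Arrays of the 2 genotypes did not overlap for 6 of the 8 genes, 2 higher and 4 lower in KO, where 39.1% of all genes tested did not overlap, 20.8% higher and 18.3% lower. The median log2 fold change of the 8 genes was -0.37, beside 0.022 over all genes tested, and the median size of the change was 0.71, beside 0.19.

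The regions before the transcription starts of the 4 genes that changed are shown here because these genes moved in opposite directions. Each window spans 250 bases before a RefSeq start and 50 after it (GRCm38.p6), 5′ to 3′ in the sense of the gene. Capitals mark CCAAT (the box bound by NF-Y), GGGCGG (the GC box of the Sp1 family), CACGTG (the E-box of basic helix-loop-helix factors) and TCACNCCAC (the core of a sterol response element), on either strand. The Mlxipl windows lie at chr5:135089640-135089939, plus strand, and chr5:135106641-135106940, plus strand. That of Srebf1, the only one of its 3 windows with both a CCAAT and a GC box, lies at chr11:60210422-60210721, minus strand. That of Acacb lies at chr5:114165268-114165567, plus strand, and that of Acss2 at chr2:155517793-155518092, plus strand.
Mlxipl, upstream start: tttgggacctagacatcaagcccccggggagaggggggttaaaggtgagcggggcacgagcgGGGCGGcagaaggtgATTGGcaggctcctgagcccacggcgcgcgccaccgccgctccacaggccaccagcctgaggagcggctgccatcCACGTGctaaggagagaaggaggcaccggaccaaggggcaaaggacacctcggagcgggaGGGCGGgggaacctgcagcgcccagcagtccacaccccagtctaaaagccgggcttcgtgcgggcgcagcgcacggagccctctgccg
Mlxipl, downstream start: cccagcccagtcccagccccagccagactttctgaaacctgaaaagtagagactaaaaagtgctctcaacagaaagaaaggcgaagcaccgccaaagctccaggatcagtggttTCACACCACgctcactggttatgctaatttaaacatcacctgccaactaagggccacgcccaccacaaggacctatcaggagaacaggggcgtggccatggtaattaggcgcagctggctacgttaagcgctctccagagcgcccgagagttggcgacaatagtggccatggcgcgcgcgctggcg
Srebf1, farthest downstream start: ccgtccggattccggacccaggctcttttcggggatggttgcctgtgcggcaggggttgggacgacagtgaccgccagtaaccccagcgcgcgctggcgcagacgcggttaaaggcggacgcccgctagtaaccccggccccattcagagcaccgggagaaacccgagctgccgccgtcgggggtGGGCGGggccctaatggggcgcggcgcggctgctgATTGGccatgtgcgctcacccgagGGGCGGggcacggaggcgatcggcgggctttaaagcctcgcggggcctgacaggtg
Acacb: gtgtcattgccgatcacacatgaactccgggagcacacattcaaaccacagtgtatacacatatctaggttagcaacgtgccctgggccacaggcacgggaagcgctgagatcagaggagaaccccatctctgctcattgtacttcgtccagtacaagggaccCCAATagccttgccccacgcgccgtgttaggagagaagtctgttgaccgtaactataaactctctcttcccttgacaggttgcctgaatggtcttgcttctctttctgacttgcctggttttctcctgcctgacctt
Acss2: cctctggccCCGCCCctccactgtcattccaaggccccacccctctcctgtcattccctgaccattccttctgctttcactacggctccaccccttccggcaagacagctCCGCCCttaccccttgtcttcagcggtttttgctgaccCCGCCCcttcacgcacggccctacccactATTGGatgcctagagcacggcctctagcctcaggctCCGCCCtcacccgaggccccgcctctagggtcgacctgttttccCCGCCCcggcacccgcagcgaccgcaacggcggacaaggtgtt

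The Acss2 window held 5 GC boxes and 1 CCAAT box, and the Acacb window 1 CCAAT box and no GC box. The upstream Mlxipl window held the only CACGTG among the 15 windows of the 10 genes, with its first base 98 bases before the start, and the downstream Mlxipl window held the only TCACNCCAC. CCAAT was found in 9 of the 15 windows and in 37.4% of all 32851 windows searched, and GGGCGG in 6 of the 15 and in 35.7% of all. Windows of 1 chromosome, which holds none of the 10 genes, were left out of the search. CACGTG was found in 7.15% and TCACNCCAC in 1.24% of all windows. An exact LXR element (a direct repeat of AGGTCA with 4 bases between) was in 0 of the 15 windows and in 0.0152% of all. No mismatch was allowed for any motif, so variant sites of these elements were not counted and their absence was not tested. The carbohydrate response element, a pair of CACGTG with 5 bases between, was in 0 of all windows when no mismatch was allowed. A match is a description of these letters and not a measured binding site, and some genes contribute several windows, those of Nr1h3 overlapping.

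Liver identity and other tissues were read from marker lists on the deposited signal, a linear scale on which values below 0 were counted as 0. All 8 hepatocyte markers were detected on all 6 arrays, with a summed signal of 121060 to 122598 in WT and 112108 to 114282 in KO. Of these 8, 0 were called higher and 2 lower in KO, beside 8.23% of all genes higher and 8.49% lower. The brightest markers weigh most in such sums. KO arrays 1 and 2 also carried transcripts of lung epithelium. The summed signal of its 8 markers was 641 to 739 in WT and 8768, 22751 and 684 on KO arrays 1, 2 and 3. Sftpa1, Sftpb and Cldn18 were not above background on any WT array or on KO array 3. KO array 3 was not free of lung transcripts: Sftpc and Scgb1a1 were 66.4 and 42.9 on it and at most 10.7 and 8.1 in WT. Sftpd was lower on KO array 3 (62.4) than in WT (136.1 to 174.5). Lung epithelium also makes fatty acids for surfactant, so many of the results below, but not all, are also given without KO arrays 1 and 2. The spread of KO array 3 was then taken from the WT arrays. A lung covariate, the mean log2 value of the 8 markers, was also used. It was 5.66 to 5.72 in WT and 9.42, 10.7 and 5.97 on KO arrays 1, 2 and 3. Both alternatives therefore lean on KO array 3 and are not separate checks. Of 8 adipocyte markers, 6 (among them Adipoq, Plin1, Lep, Fabp4 and Ucp1) were not above background on any array. The adipocyte sum of 68.8 to 92.3 in WT and 113 to 420 in KO came mostly from Cidea, which was 316, 80.2 and 374 on KO arrays 1, 2 and 3. Summed signals in WT and KO were 53691 to 54335 and 55690 to 59059 for erythroid cells, 3761 to 5062 and 3527 to 3836 for macrophages, 11682 to 13148 and 13209 to 13541 for stellate cells and fibroblasts, and 5226 to 6224 and 7077 to 7271 for endothelium. Of the tested markers, 1 of 5 erythroid and 1 of 7 endothelial were called higher and 0 lower. For macrophages (6 tested) and for stellate cells and fibroblasts (8 tested), 0 changed. The erythroid marker Hba-a1 was 28405 on every array except WT array 1 (27702). Those of exocrine pancreas were 9777 to 10993 and 13182 to 14228, mostly from Amy2a5, whose probe may bind other amylase genes, and Cpa1, Cel, Ctrb1 and Prss2 were not above background on any array. Reg1 of the same list was 7.4, 6.5 and 13.8 in WT and 806, 2135 and 51.6 on KO arrays 1, 2 and 3, highest where the lung transcripts were highest. Xist was 1017.5 on WT array 1 and 1984 and 1822.5 on KO arrays 1 and 2, and at most 17.9 on the other arrays. The Y-linked genes Eif2s3y, Kdm5d and Uty were above background on all 6 arrays. Eif2s3y was 887, 685 and 619 on the arrays with high Xist and 925 to 1085 on the others. Xist was thus not balanced between genotypes, and whether an array holds RNA of both sexes was not tested. The sex covariate was the mean log2 value of the Y-linked genes minus that of Xist. With sex as a covariate the same 4 lipogenic genes passed, with log2 fold changes of 1.29 for Acacb, 0.70 for Acss2, -1.49 for Mlxipl and -1.06 for Srebf1. In bulk liver, fewer cells of a type and less RNA per cell cannot be told apart.

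Mlxipl, which encodes ChREBP, had the smallest p of the set. The signal of its brighter probe was 689, 651 and 605 on WT arrays 1, 2 and 3 and 200, 213 and 239 on the KO arrays. The highest KO array lay far below the lowest WT array, and 33.5% of the mean WT signal was left (648.5 ± 42.1 in WT, 217 ± 19.9 in KO; SD, n = 3 each). Mlxipl fell by 1.51 ± 0.10 on the log2 scale (SE; limma adjusted p = 0.000209), with the 31st smallest p of the 11346 genes. A second probe gave signals of 455, 419 and 408.5 in WT and 119, 140 and 132 in KO, and fell by 1.60 ± 0.10 (SE; limma adjusted p = 0.000119 among all kept probes). Both probes placed every KO array below every WT array. Without KO arrays 1 and 2 the log2 fold change was -1.38 (limma adjusted p = 0.0217), and with the lung transcripts as a covariate it was -1.39 (limma adjusted p = 0.00543). Mlxipl kept its call in all 19 alternatives run, with log2 fold changes of -1.59 to -1.38.

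Srebf1, which encodes the SREBP-1 proteins, had signals closer to background. They were 82.6, 50.9 and 53.2 in WT and 22.2, 37.6 and 21.3 in KO, above background on all 6 arrays. WT array 1 was higher than the other WT arrays and KO array 2 higher than the other KO arrays, and the groups did not overlap. Srebf1 fell by 0.86 ± 0.19 on the log2 scale (SE; limma adjusted p = 0.0243). The call was lost without WT array 1 (limma adjusted p = 0.0655), KO array 1 (0.0900) or KO array 3 (0.0647), and without both KO arrays 1 and 2, where the log2 fold change was -1.04 (limma adjusted p = 0.109). The deposited mean was 62.2 ± 17.7 in WT and 27.0 ± 9.16 in KO (SD, n = 3 each), or 43.4% of WT, a larger difference than on the log2 scale, where an offset of 16 added to every value shrinks the changes of dim genes. A second Srebf1 probe was not above background on any array (-12.1 to -6.6), and which transcripts of Srebf1 either probe reads was not analysed here.

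Nr1h3, which encodes LXR alpha, had a signal of 1364.5, 1169 and 1357 in WT and 971, 811 and 1117 in KO. The groups did not overlap, but the highest KO array was close to the lowest WT array. The log2 fold change was -0.43 ± 0.13 (SE; 95% interval -0.74 to -0.12; limma adjusted p = 0.0657), which did not pass. A second probe, with 120, 80.3 and 68.9 in WT and 74.1, 51.6 and 85.6 in KO, overlapped between groups (log2 fold change -0.28 ± 0.21, SE; limma adjusted p = 0.378 among all kept probes). KO array 3, the KO array with the lowest lung marker signal, held the highest KO value on both probes. The log2 fold change was -0.21 without KO arrays 1 and 2 (limma adjusted p = 0.535), and the test was passed without KO array 3 (-0.54; limma adjusted p = 0.0444).

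**Figure D1:**
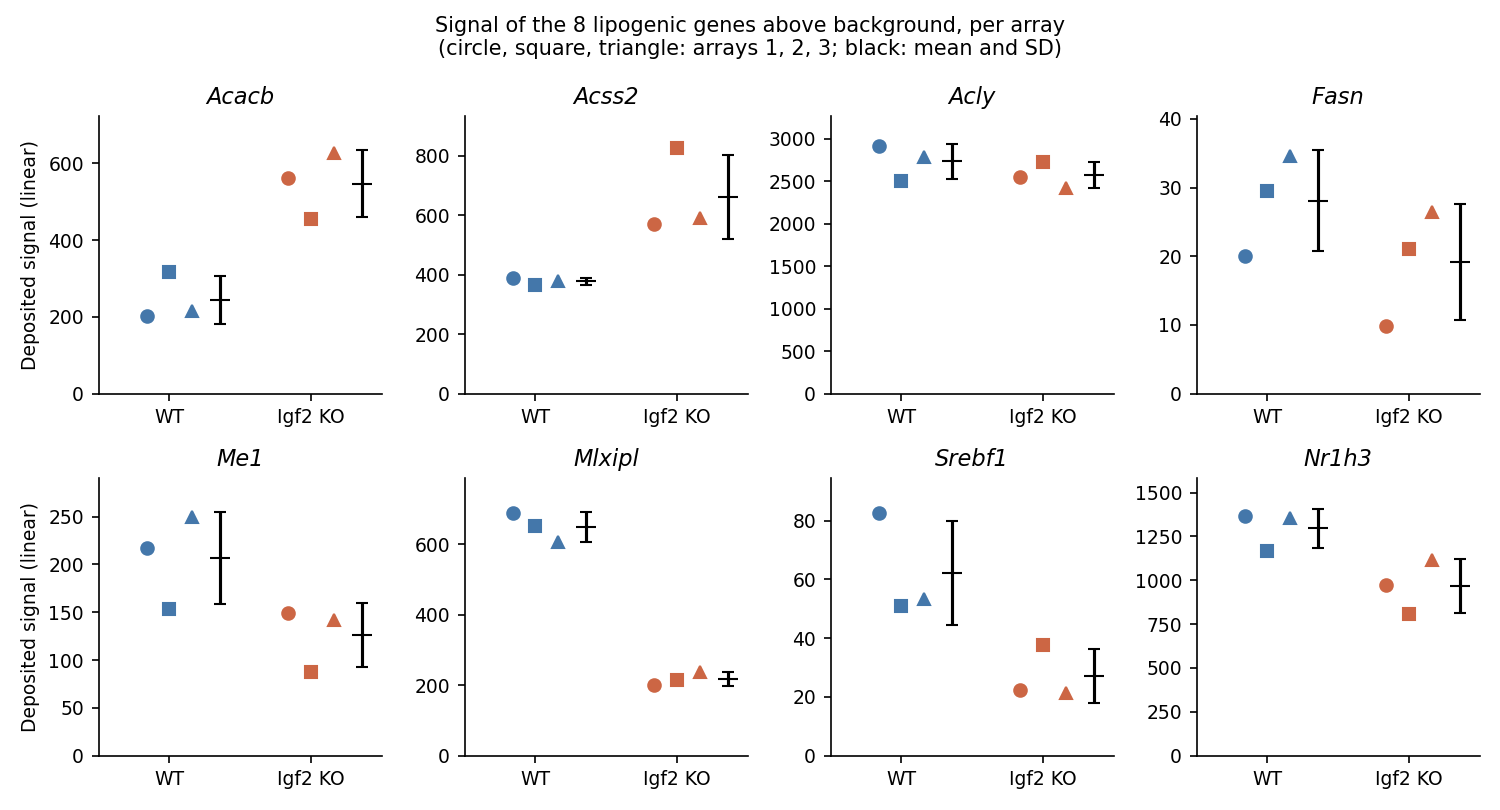
Deposited signal on a linear axis from 0 for the 8 genes above background, in WT (blue) and Igf2 KO (orange), with arrays 1, 2 and 3 as circle, square and triangle and the mean and SD in black. Acacb and Acss2 are higher on every KO array, Mlxipl, Srebf1, Me1 and Nr1h3 are lower on every KO array, and Acly and Fasn overlap.

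Among the enzymes, Acacb rose most. It encodes acetyl-CoA carboxylase 2, the form on the outer mitochondrial membrane whose malonyl-CoA restrains carnitine palmitoyltransferase 1. The signal of its bright probe was 202, 317 and 214 in WT and 561, 455 and 627 in KO. All KO arrays lay above all WT arrays, and the highest was KO array 3, the KO array with the lowest lung marker signal. Acacb rose 2.19-fold, by 1.13 ± 0.19 on the log2 scale (SE; limma adjusted p = 0.00712). Without KO arrays 1 and 2 its log2 fold change was 1.33 and the call was lost (limma adjusted p = 0.0736), and with the lung covariate it was 1.39 (limma adjusted p = 0.0290). A second Acacb probe was not above background on any array (5.7 to 10.7). Acaca, the cytosolic acetyl-CoA carboxylase 1 that feeds fatty acid synthase, had a single probe, which lay between -5.4 and -2.0 on all arrays. The array therefore gave no measure of the carboxylase gene of the cytosol, and the balance of the 2 forms was not tested.

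Acss2 encodes the cytosolic acetyl-CoA synthetase, which makes acetyl-CoA from acetate. Its signal was 389, 365 and 378.5 in WT and 569.5, 825 and 591 in KO. The WT arrays were close together, all KO arrays lay above them, and KO array 2, which carried most lung transcripts, was the highest. Acss2 rose 1.70-fold, by 0.77 ± 0.14 on the log2 scale (SE; limma adjusted p = 0.0123). The log2 fold change was 0.63 without KO arrays 1 and 2 (limma adjusted p = 0.0979) and 0.54 with the lung covariate (limma adjusted p = 0.165). KO array 3, at 591, was still above the highest WT array. A second Acss2 probe was not above background (2.1 to 12.1).

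Acly, ATP citrate lyase, did not pass. Its signal was 2910, 2505 and 2786 in WT and 2554, 2731 and 2422 in KO, and the groups overlapped. The log2 fold change was -0.088 ± 0.097 (SE; limma adjusted p = 0.564), with a 95% interval of -0.31 to 0.14, so that a change within those bounds could not be told from none. Fasn, fatty acid synthase, had a single dim probe, with 20.1, 29.5 and 34.6 in WT and 9.9, 21.1 and 26.4 in KO. KO array 1 was not above background, and the groups overlapped. Its log2 fold change was -0.31 ± 0.18 (SE; 95% interval -0.73 to 0.12; limma adjusted p = 0.276), and -0.044 without KO arrays 1 and 2 (limma adjusted p = 0.935).

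Me1, the cytosolic malic enzyme that supplies NADPH, had a signal of 217, 154 and 249 in WT and 149, 87.7 and 142 in KO. The groups did not overlap, although KO array 1 nearly reached WT array 2. The log2 fold change of -0.65 ± 0.22 (SE; 95% interval -1.17 to -0.14) did not pass (limma adjusted p = 0.0827), and it was -0.47 without KO arrays 1 and 2 (limma adjusted p = 0.398). Thrsp, which acts together with its relative Mid1ip1 on acetyl-CoA carboxylase, had 2 probes, which ranged from -4.9 to 0.1 and from -2.8 to 13.5 and were not above background on any array.

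**Figure D2:**
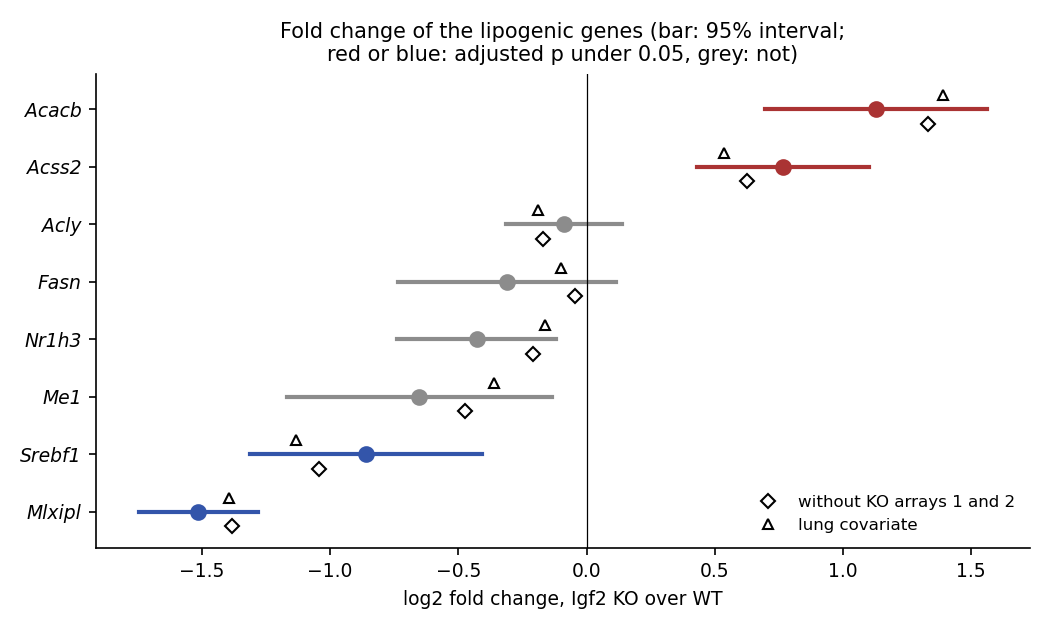
Log2 fold change of each tested gene in Igf2 KO over WT, with its 95% interval from limma. Filled red and blue points passed an adjusted p of 0.05, grey points did not, open diamonds leave out KO arrays 1 and 2 and open triangles use the lung transcripts as a covariate. Each of the 8 genes kept its sign in both alternatives, from -1.51 for Mlxipl to 1.13 for Acacb in the main comparison.

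The partners of these factors were read from lists of the pathway. Of 12 tested genes of SREBP processing and its partner factors, 1 rose and 4 fell, beside 8.23% of all genes higher and 8.49% lower. Their median log2 fold change was -0.27. Insig2, which with Insig1 holds SREBP precursors in the endoplasmic reticulum, rose. Its signal was 1280, 1603 and 1328 in WT and 4184, 4262 and 4176 in KO, a rise of 1.58 ± 0.11 on the log2 scale (SE; limma adjusted p = 0.000209). The KO arrays were nearly equal and at 298% to 304% of the WT mean, and Insig2 kept its call in all 19 alternatives run. Insig1 was at 91.4% to 110% of the WT mean in WT and 66.7% to 96.6% in KO, so the groups overlapped (log2 fold change -0.35 ± 0.15, SE; limma adjusted p = 0.144). Scap, the escort of SREBP, did not pass either (-0.21 ± 0.11; limma adjusted p = 0.220).

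Srebf2, which encodes the SREBP of cholesterol synthesis, fell by 0.41 ± 0.11 on the log2 scale (SE), from 365, 405 and 461 in WT to 287, 301 and 321.5 in KO (limma adjusted p = 0.0387). Usf2, an E-box factor known to act on the Fasn promoter, fell by 0.52 ± 0.11, and Nfya, a subunit of the CCAAT-binding factor NF-Y, by 0.42 ± 0.086. Nfyb, another subunit of NF-Y, fell by 0.34 ± 0.090 (limma adjusted p = 0.0412). Nfyc, its remaining subunit, had a log2 fold change of 0.11 ± 0.083 and did not pass (limma adjusted p = 0.401). The call of Srebf2 did not hold without WT array 2 or 3 or KO array 1, 2 or 3 (limma adjusted p up to 0.133), that of Usf2 without WT array 1 or KO array 3 (up to 0.0513) and that of Nfya without WT array 1 or KO array 1 (up to 0.0768). Without KO arrays 1 and 2 the list had 1 gene higher and 0 lower in limma, where 1.02% of all genes tested were higher and 0.987% lower (2.01% in all). At an unadjusted p under 0.05 it then had 1 higher and 3 lower, beside 9.55% of all genes higher and 9.02% lower (18.6% in all). With sex as a covariate, Srebf2 (limma adjusted p = 0.118) and Nfya (0.0530) did not pass, and the list had 1 gene higher and 1 lower. That model called 571 of all 11346 genes higher and 585 lower.

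Of 8 tested partners of ChREBP and LXR, 3 rose and 1 fell, beside 8.23% of all genes higher and 8.49% lower. Their median log2 fold change was 0.22. Mlx, which pairs with ChREBP to bind DNA, had a signal of 123, 112 and 136 in WT and 170, 170 and 157 in KO. Mlxip, the paralog of Mlxipl also known as MondoA, had 122, 145 and 128 in WT and 206, 220 and 234 in KO. The groups lay apart for both genes, in the direction opposite to that of Mlxipl. Mlxip rose by 0.68 ± 0.098 (SE; limma adjusted p = 0.00427) and Mlx by 0.38 ± 0.095 (limma adjusted p = 0.0342). Ppargc1b, a coactivator of SREBP, rose by 1.15 ± 0.16 (limma adjusted p = 0.00361), from 317, 480 and 436 in WT to 822, 943 and 1007 in KO. Ppara, the fatty acid sensor, fell by 0.43 ± 0.12 (limma adjusted p = 0.0454). Neither Mlx nor Ppara passed when 1 array was left out, whether WT array 1 or 2 or KO array 1, 2 or 3 (limma adjusted p up to 0.118 for Mlx and 0.137 for Ppara). Without KO arrays 1 and 2, 0 of the 8 passed in limma in either direction (2 higher and 0 lower at an unadjusted p under 0.05, which 18.6% of all genes then met), and the 4 genes named here kept their sign. With sex as a covariate, 2 were higher and 0 lower, beside 571 higher and 585 lower of all 11346 genes. Neither Mlx (limma adjusted p = 0.105) nor Ppara (0.123) passed in that model.

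**Figure D3:**
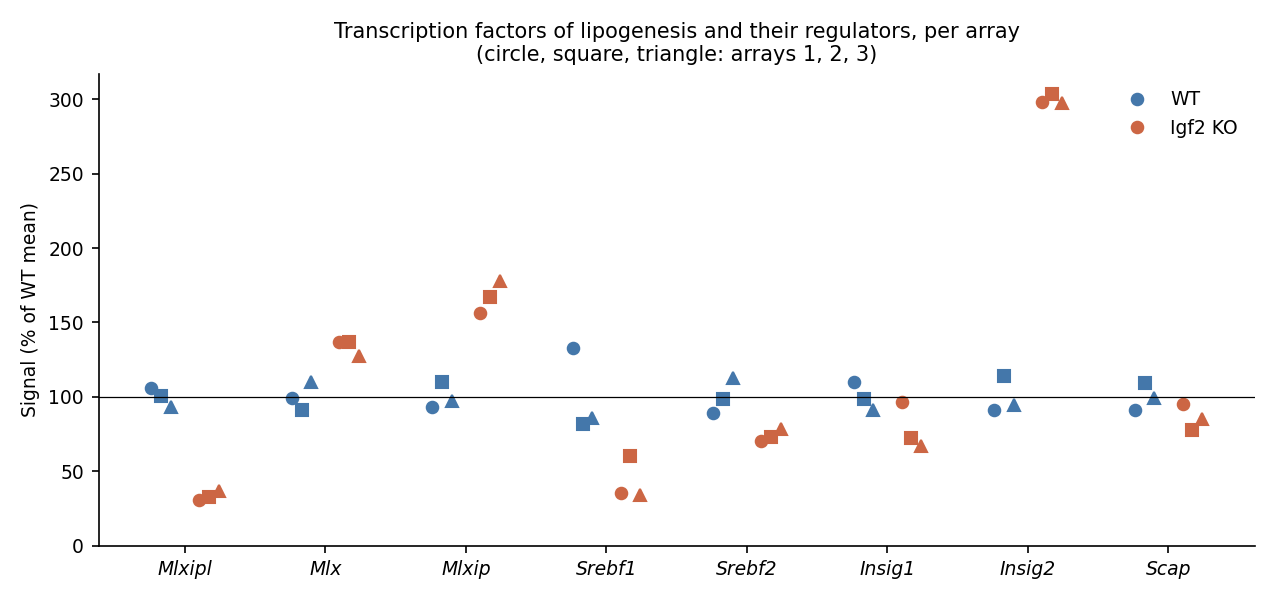
Deposited signal of transcription factors of lipogenesis and of SREBP regulators on each array, as a percentage of the mean of the 3 WT arrays of that gene, on a linear axis from 0 (WT blue, Igf2 KO orange; circle, square and triangle are arrays 1, 2 and 3). Mlxipl and Srebf1 lie lower in KO, Mlx and Mlxip higher, and Insig2 lies at 298% to 304% of the WT mean on the KO arrays.

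The substrates of the enzymes were read in the same way. Of 9 tested genes that supply acetyl-CoA and citrate, 3 rose and 0 fell in limma, beside 8.23% of all genes higher and 8.49% lower. At an unadjusted p under 0.05 the counts were 4 and 0, beside 33.6% of all genes, 17.9% higher and 15.8% lower. The median log2 fold change was 0.13. The 3 that rose in limma belong to pyruvate dehydrogenase or act on it. Dlat, its E2 subunit, rose by 0.61 ± 0.096 (SE; limma adjusted p = 0.00612), and the inhibitory kinases Pdk2 and Pdk4 rose by 0.88 ± 0.17 and 0.96 ± 0.22 (limma adjusted p = 0.0132 and 0.0241). Pdha1 and Pdhb, subunits of the same complex, had log2 fold changes of 0.25 and 0.13 and did not pass (limma adjusted p = 0.0854 and 0.411). Slc25a1, the carrier that exports citrate from mitochondria, had a log2 fold change of -0.0047 ± 0.10 (limma adjusted p = 0.979). The call of Pdk2 did not hold without KO array 1 (limma adjusted p = 0.0515) and that of Pdk4 without WT array 1 or 2 or KO array 1 or 3 (up to 0.0798), and 0 of the 9 passed in limma without KO arrays 1 and 2 (3 higher and 0 lower at an unadjusted p under 0.05, beside 18.6% of all genes).

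Of 7 tested genes of NADPH supply, 0 rose and 1 fell in limma, beside 16.7% of all genes in either direction. At an unadjusted p under 0.05 the counts were 1 and 1, or 2 of 7, beside 33.6% of all genes. The median log2 fold change was 0.0016. The gene that fell in limma was Idh1, the cytosolic isocitrate dehydrogenase, with 2857, 2661 and 2378 in WT and 1104, 1187 and 1135 in KO. It fell by 1.19 ± 0.097 on the log2 scale (SE; limma adjusted p = 0.000481) and kept its call in all 19 alternatives run. The pentose phosphate enzymes Tkt, Taldo1 and Pgls had log2 fold changes of 0.18, 0.048 and 0.0016 and did not pass. Of the dehydrogenases of that pathway, G6pdx had no probe and Pgd no kept probe, so its NADPH-making steps were not measured.

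Of 13 tested genes that control acetyl-CoA carboxylase or use malonyl-CoA, 0 rose and 2 fell in limma, beside 16.7% of all genes in either direction. At an unadjusted p under 0.05 the counts were also 0 and 2, or 2 of 13, beside 33.6% of all genes. The median log2 fold change was -0.043. Cpt1a, a gene of carnitine palmitoyltransferase 1, had no kept probe and was not tested. Mid1ip1, the relative of Thrsp that promotes polymerisation of acetyl-CoA carboxylase, had 976, 870 and 876 in WT and 446.5, 515 and 484 in KO. It fell by 0.89 ± 0.096 (SE; limma adjusted p = 0.00141), with log2 fold changes of -0.98 to -0.84 over 19 alternatives. Cpt2, the inner carnitine palmitoyltransferase, fell by 0.73 ± 0.13 (limma adjusted p = 0.0109). None of the 6 tested subunits of AMP-activated protein kinase, which inactivates the carboxylases, passed. Their log2 fold changes ran from -0.11 to 0.26. Without KO arrays 1 and 2 neither Mid1ip1 (-0.88; limma adjusted p = 0.0550) nor Cpt2 (-0.58; limma adjusted p = 0.166) passed.

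Of 16 tested genes of other fatty acid synthesis and esterification, 3 rose and 7 fell, beside 8.23% of all genes higher and 8.49% lower. Their median log2 fold change was -0.24. Scd1, a stearoyl-CoA desaturase, rose to 737, 1380 and 650 in KO from 274, 193.5 and 228 in WT, and like Acss2 it was highest on KO array 2. Lpin1, a phosphatidate phosphatase, also rose, to 1581, 2382 and 1569 from 147, 487 and 93.4. Dgat1 rose by 0.57 ± 0.14 (SE; limma adjusted p = 0.0366). Elovl2, an elongase of polyunsaturated fatty acids, fell by 0.69 ± 0.083 (limma adjusted p = 0.00210), and so did Agpat2 and Dgat2, enzymes of triglyceride assembly, with Acsl3, Acsl5, Elovl6 and Mcat. Dgat1 did not pass without WT array 1 or 2 or KO array 1, 2 or 3 (limma adjusted p up to 0.0977), nor with sex as a covariate (0.0661). With the lung covariate, 0 genes of the list were higher and 4 lower, beside 275 higher and 266 lower of all 11346 genes. Scd1 (limma adjusted p = 0.0525) and Lpin1 (0.0829) then did not pass. Without KO arrays 1 and 2 their log2 fold changes were 1.44 and 2.93.

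Of 10 tested carbohydrate-responsive genes, which include known targets of ChREBP, 1 rose and 3 fell, beside 8.23% of all genes higher and 8.49% lower. Their median log2 fold change was -0.12. Tkfc, which phosphorylates glyceraldehyde from fructose, had 5468, 2968 and 3655 in WT and 1422, 1893 and 1434 in KO, and fell by 1.31 ± 0.22 (SE; limma adjusted p = 0.00835). Gpd1, which makes glycerol 3-phosphate, fell by 1.06 ± 0.22 (limma adjusted p = 0.0192), and Slc2a2, the glucose transporter GLUT2, fell too. Txnip, a glucose-induced thioredoxin inhibitor, rose by 0.64 ± 0.17 (limma adjusted p = 0.0389), and its relative Arrdc4 had 0.54 ± 0.21 and did not pass (limma adjusted p = 0.118). Pklr, liver pyruvate kinase and the classic carbohydrate-induced gene, had -0.40 ± 0.20 and did not pass (limma adjusted p = 0.212). Txnip did not pass without WT array 1 or 3 or KO array 1 or 3 (limma adjusted p up to 0.122) and Gpd1 without KO array 1 or 2 (up to 0.0614). With KO arrays 1 and 2 left out, 0 of the 10 passed in limma (1 higher and 4 lower at an unadjusted p under 0.05, beside 18.6% of all genes).

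Of 10 tested LXR target genes, Nr1h3 itself included, 2 rose and 2 fell, beside 8.23% of all genes higher and 8.49% lower. Their median log2 fold change was -0.16. The 2 that rose were the sterol exporter genes Abcg5 (476, 632 and 122 in WT, 3224, 3660.5 and 3447 in KO) and Abcg8 (112, 192.5 and 38.5 in WT, 956, 1333 and 1240 in KO). Cyp7a1, which catalyses the first step from cholesterol to bile acids and is an LXR target in rodents, fell by 1.55 ± 0.23 (SE; limma adjusted p = 0.00466). Lpcat3, a phospholipid remodelling enzyme, fell by 0.35 ± 0.090 (limma adjusted p = 0.0378), a call lost on leaving out any 1 array (up to 0.119) and with sex as a covariate (0.122). Abcg1, Pltp, Lpl, Smpdl3a and Apoe did not pass, with log2 fold changes from -0.46 to 0.35. When KO arrays 1 and 2 were left out, 0 of the 10 passed in limma (2 higher and 2 lower at an unadjusted p under 0.05, beside 18.6% of all genes). Srebf1, described above, is also an LXR target.

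**Figure D4:**
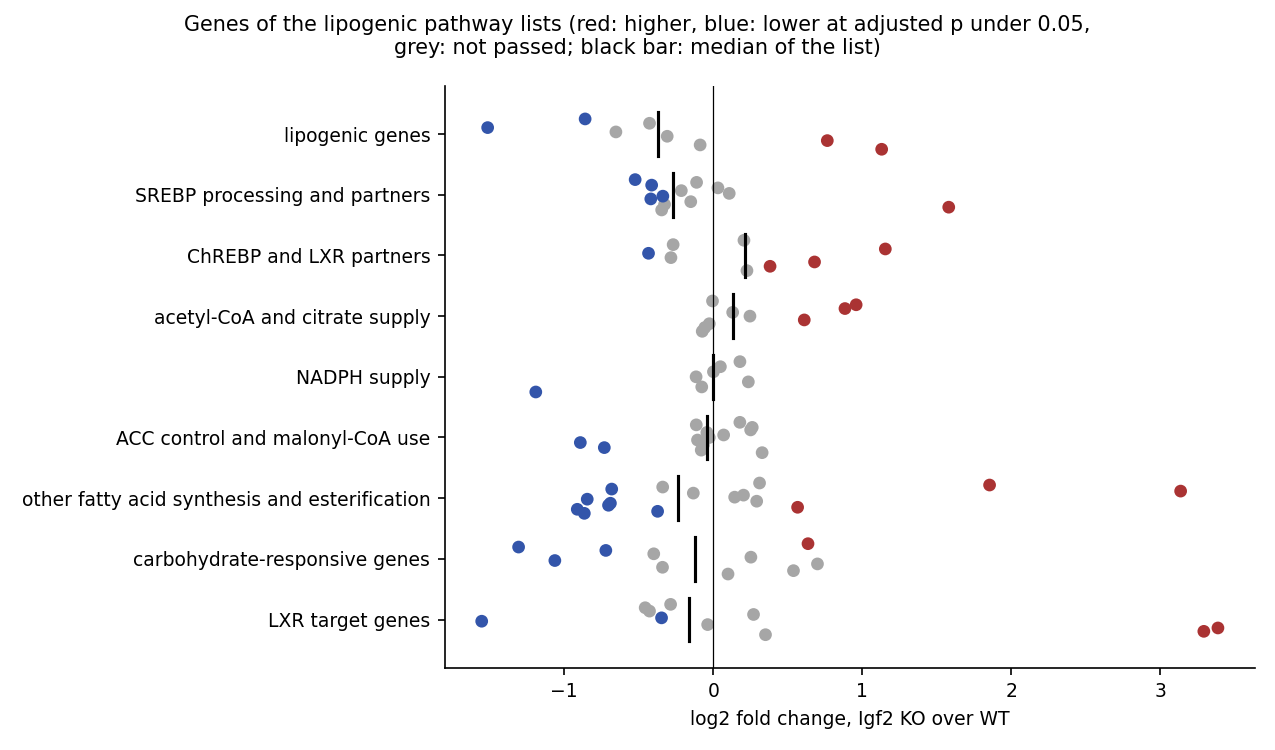
Log2 fold change in Igf2 KO over WT of every tested gene in the lists, 1 row a list, with red points higher and blue points lower at a limma adjusted p under 0.05, grey points not passed and black bars at the median of the list. The lipogenic genes spread to both sides, and the medians of all lists lie between -0.37 and 0.22.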

How the data were processed

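The authors deposited intensity values per probe on a linear scale. Background had been subtracted and arrays normalized to each other before deposit: 25.0% to 25.1% are below 0, and the sorted arrays differ by at most 0.2. They also deposited a detection p-value per probe and array. The software that made them is not stated in the labels used here. The 2 tables were joined by their intensities, and probes were named through the platform annotation and RefSeq. Probes were matched to the 10 genes by current symbol, and a synonym that is the symbol of another gene (Mlx, Add1, Fas) was not counted.

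Intensities were processed with neqc of limma 3.58.1 in R 4.3.3 (offset 16, quantile normalization, log2). A probe was kept when its detection p was under 0.05 on 3 or more arrays. The brightest kept probe stood for each of 11346 genes. Genotypes were compared with lmFit and eBayes (two-sided, Benjamini-Hochberg adjustment over all genes, threshold 0.05), after the procedure was tested on simulated data. Intervals are 95%, and the number of arrays limits the precision.

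The genes, lists and tests were chosen with earlier results of these data known. Genes were named if members or, per list, among the 3 changed genes in each direction with the smallest p. Others were named after their values were seen. Of 112 list entries, those without a kept probe were not analysed here. Promoter windows come from RefSeq (GRCm38.p6). Alternatives changed the background correction, normalization, offset, filter, probe choice, variance model, array weights, replicate block, covariates and arrays used.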

Additional observations from a re-analysis of the deposited data

How the results depend on the processing

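The count of the 8 tested lipogenic genes that changed (4) was 2 with the lung transcripts as a covariate (Mlxipl and Acacb) and 1 without KO arrays 1 and 2 (Mlxipl), and 3 to 4 when 1 array was left out. No log2 fold change of the 8 genes reversed in any alternative run. The count over all genes (1897) was 3088 probes with every kept probe tested, 3025 with array weights, 1156 with the sex covariate, 541 with the lung covariate, 228 without KO arrays 1 and 2, and 849 to 1880 when 1 array was left out. Fewer arrays or degrees of freedom are part of the construction of the last 4; beyond that the cause was not tested. Besides the arrays named above, Srebf1 lost its call with no filter (limma adjusted p = 0.0507), the replicate block (0.0561) and the lung covariate (0.0576). Nr1h3 passed with an offset of 50 (limma adjusted p = 0.0473), the other variance model (0.0308) and array weights (0.0328). With the replicate number of the titles as a block, 4 of the lipogenic genes (1323 of all genes) changed, with Me1 passing (limma adjusted p = 0.0198) in place of Srebf1. The numbers do not show a pairing: deviations of same-numbered arrays from their group means correlated across genes at -0.0044, 0.028 and 0.015, and WT array 3 correlated best with KO array 1 (0.11). Fasn could not be tested with detection required on all 6 arrays. Fasn and Srebf1 were dim, so that their signal over background limits what could be detected.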

Other observations

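The genes whose log2 values, centred over the 6 arrays, lay closest to those of Mlxipl were Asap3, Ephx1 and Timd2, at a root mean square difference of 0.054, 0.057 and 0.068 on the log2 scale. For Srebf1 they were Akr1c14, Slc44a3 and Gbp7, at 0.081, 0.086 and 0.095, and for Fasn Il20ra, Cntln and Klhdc8b, at 0.069, 0.092 and 0.095. All of these values describe 6 arrays of 2 genotypes, in which genes with the same difference between genotypes lie close to each other.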
